A study of Saccharomyces cerevisiae with 6 samples.

Results

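Transcripts for subunits of the 3 nuclear RNA polymerases and for the initiation factors of RNA polymerases I and III were followed in budding yeast, Saccharomyces cerevisiae strain S288C, after exposure to methanol. The set holds 49 genes, of which 47 were matched by gene symbol in the platform annotation, out of 5379 genes on the array. Of these 49, 47 had at least 1 value and 35 had a value on all 3 arrays, so that they could be tested. RPO31 and RPO21, which encode the largest subunits of polymerases III and II, matched no spot in the annotation used and were not analysed here.

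Each array was a direct 2-colour comparison of poly(A) RNA from cultures in rich glucose medium at 25 °C that were brought to 5% methanol when their optical density had reached 1 and grew on for 2 h (labelled with Cy5), against RNA from cultures left without methanol over the same 2 h (labelled with Cy3). The 3 arrays held independent biological samples, and each was read by the scanner at a high and a low laser power. RNA came from whole cultures, so fewer cells with a transcript and less of it per cell cannot be told apart. Values are log2 ratios of methanol over untreated, as the mean of an array's scans after the array was centred on its median gene, and per-array values are given in the order of replicates 1, 2 and 3. The base of the logarithm and the direction are not stated with the values. Base 2 was assumed, and the direction is likely because the methanol sample is the Cy5 sample and is listed as channel 1. The dyes were never exchanged, so a dye effect of a gene cannot be told apart from the effect of methanol.

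In yeast, polymerase I transcribes the large ribosomal RNA precursor from the repeated rDNA genes, polymerase III makes transfer RNAs, 5S ribosomal RNA and other small RNAs, and polymerase II makes messenger RNAs. The enzymes are built on a common plan. They share several small subunits, while polymerases I and III have in common a pair that polymerase II replaces with its own counterparts. Growing yeast devotes most of its transcription to ribosomal and transfer RNA, and the output of polymerases I and III is known to be cut back under nutrient limitation and stress.

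Most subunit transcripts of polymerases I and III were lower in methanol, whereas those of polymerase II lay on both sides of the array median. The median log2 ratio was −1.61 over the 4 tested polymerase I subunits, −0.83 over the 6 tested polymerase III subunits and −0.02 over the 6 tested polymerase II subunits, against −0.01 over all 4336 genes tested. Calls were made with limma, fitted over all genes, where the Benjamini-Hochberg adjusted p fell under 0.05. Of the 35 members tested, 24 were called lower, where 24.2% of all genes tested were, and 2 were called higher, where 26.0% of all genes were. Without replicate 1 the count of members called lower was 16, where 594 of the 4336 genes tested were, in place of 1051 with all 3 arrays. At least 2-fold falls were called for 9 members, against 5.63% of all genes tested. The lower calls came from 19 of 23 tested subunit genes and from 5 of 12 tested factor genes, both above the share over all genes tested. Among the factors, 2 of 6 tested polymerase I genes (median −0.05) and 3 of 6 tested polymerase III genes (median −0.39) were called lower. These counts cover members with a value on all 3 arrays. The 12 members that were on the array but untested are described below by their values, and 11 of them had no value on replicate 2.

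**Figure D1:**
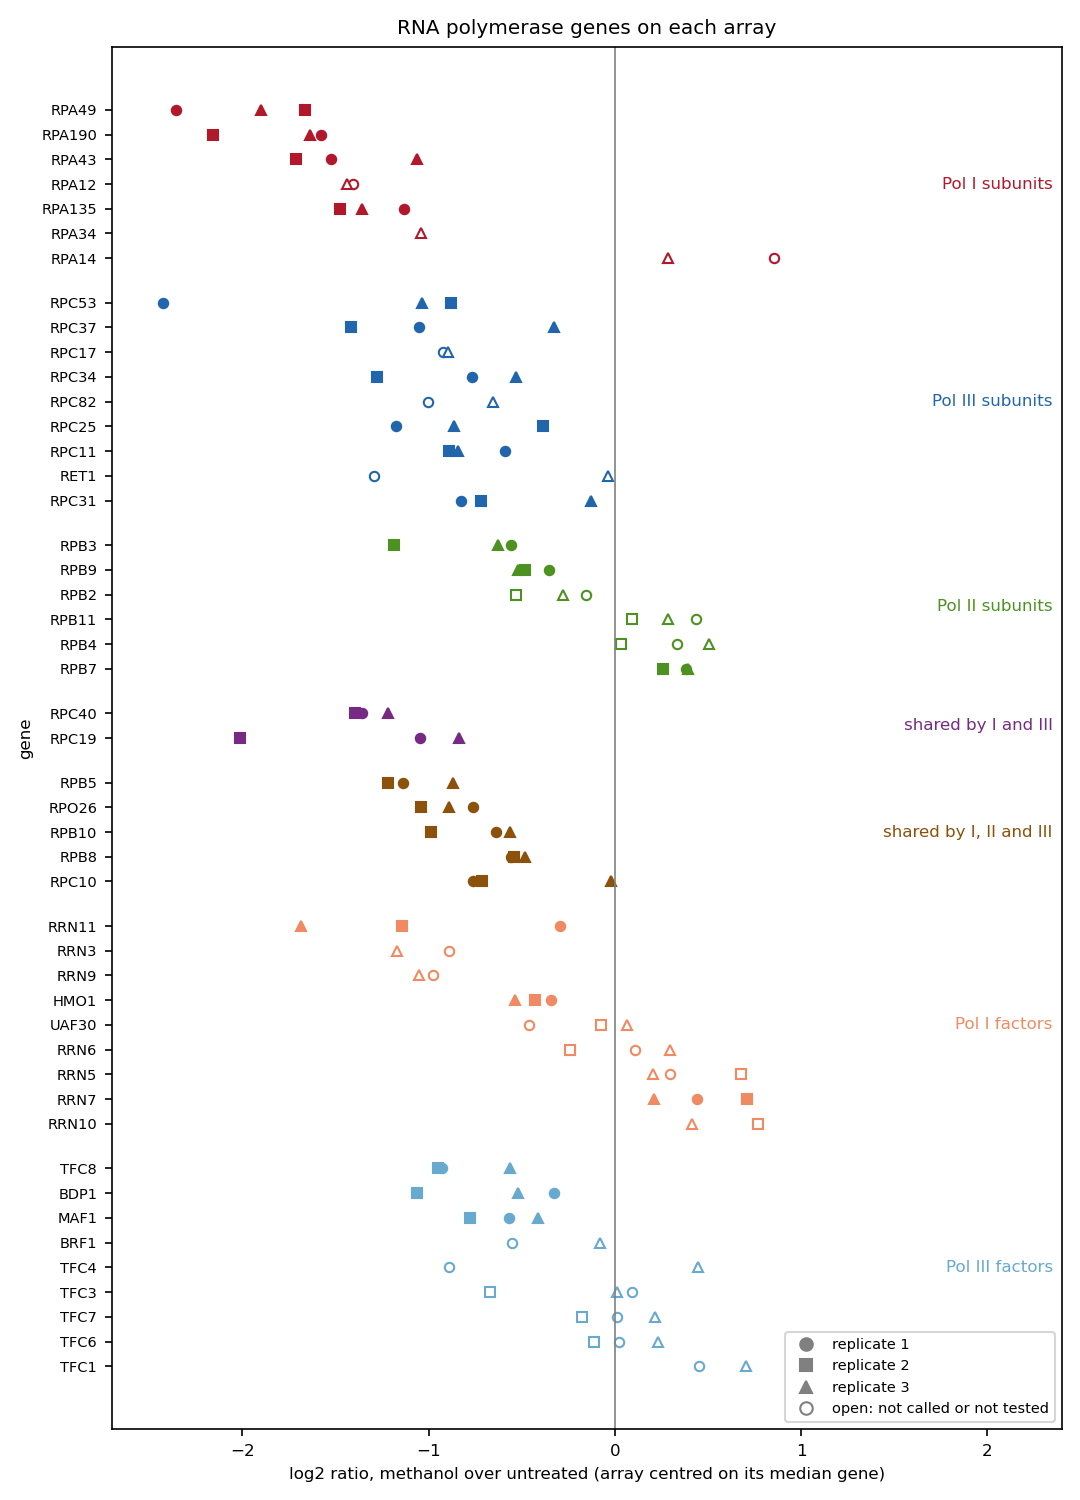
Each row is a gene with a value and each point is its log2 ratio of methanol over untreated on an array (circle, replicate 1; square, replicate 2; triangle, replicate 3). Filled points mark genes called at limma adjusted p under 0.05, and open points mark genes not called or not tested. The polymerase I subunits other than RPA14 lie at or below −1.04, while the polymerase II subunits lie on both sides of 0.

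The polymerase I subunits had the lowest group median, and RPA49 and RPA190 had the lowest means of the set. RPA49 (YNL248C) encodes the larger partner of a dimer particular to polymerase I that aids initiation and elongation. Its log2 ratios were −2.36, −1.66 and −1.90, a mean of −1.97 ± 0.35 (SD, n = 3), or 0.254 times the untreated level (limma adjusted p = 0.000124). It was the gene with rank 9 from the lowest among the 4336 tested. RPA190 (YOR341W), the gene of the largest subunit, which carries the active site, stood at −1.58, −2.15 and −1.64, with a mean of −1.79 ± 0.32 (SD, n = 3; limma adjusted p = 0.000151) and rank 21. Both genes were far below 0 on all 3 arrays, by several times their spread.

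RPA43 (YOR340C) encodes the subunit of the stalk through which polymerase I meets the initiation factor Rrn3. It had −1.53, −1.71 and −1.06, with a mean of −1.43 ± 0.33 (SD, n = 3; limma adjusted p = 0.000403). RPA135 (YPR010C), the gene of the second largest subunit, which completes the catalytic cleft, had −1.13, −1.48 and −1.36 and a mean of −1.32 ± 0.18 (SD, n = 3; limma adjusted p = 0.000266). In the reference gene order RPA43 and RPA190 are next to each other, and the C and W of their systematic names place them on opposite strands, transcribed away from each other. They were the only neighbouring pair among the 49 genes.

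The other 3 polymerase I subunits were valued on too few arrays to be tested. RPA12 (YJR063W), the gene of a small subunit for RNA cleavage and termination, had −1.40 and −1.44 on replicates 1 and 3. RPA34 (YJL148W), the partner of RPA49, had −1.04 on replicate 3 alone. RPA14 (YDR156W), the gene of the small stalk subunit, ran the other way at 0.85 and 0.29 on replicates 1 and 3. All of these values, and those of RPA190, RPA49 and RPA43, came from high-power scans only. Of the 7 polymerase I subunits, RPA14 was thus the exception, with 6 genes below 0 on every array that gave a value.

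For polymerase III, the called fall was largest for RPC53 (YDL150W), which with RPC37 (YKR025W) encodes a dimer for termination and reinitiation. RPC53 had −2.43, −0.88 and −1.03, a mean of −1.45 ± 0.85 (SD, n = 3; limma adjusted p = 0.00466). Replicate 1 set much of that size, and without it the mean was −0.96. RPC37 had −1.05, −1.42 and −0.33, with a mean of −0.93 ± 0.55 (SD, n = 3; limma adjusted p = 0.00766). Both genes were below 0 on all arrays, with sizes that differed widely.

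RPC34 (YNR003C), RPC31 (YNL151C) and RPC82 (YPR190C) encode a trimer of polymerase III that takes part in opening the promoter. RPC34 averaged −0.86 ± 0.38 (SD, n = 3). RPC31, the least changed of the tested polymerase III subunits, had −0.82, −0.72 and −0.13, a mean of −0.56 ± 0.37 (SD, n = 3; limma adjusted p = 0.0246). RPC82 had −1.0 and −0.65 on replicates 1 and 3 and was not tested. RPC31 lay close to 0 on replicate 3, and RPC37 and RPC34 too were nearest to 0 on that array. Before centring, RPC37 and RPC34 had −0.68 and −0.96 there at high power, and −0.03 and −0.15 at low power.

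The stalk of polymerase III is encoded by RPC25 (YKL144C) and RPC17 (YJL011C). RPC25 had −1.18, −0.38 and −0.86, a mean of −0.81 ± 0.40 (SD, n = 3; limma adjusted p = 0.00625). RPC17 had −0.92 and −0.90 on replicates 1 and 3. RPC11 (YDR045C), the gene of the subunit for RNA cleavage, had −0.59, −0.89 and −0.84, a mean of −0.77 ± 0.16 (SD, n = 3; limma adjusted p = 0.00241). RET1 (YOR207C), the gene of the second largest subunit, had −1.29 and −0.04 on replicates 1 and 3, which leaves its size unsettled. All 9 polymerase III subunits with a value were below 0 on each array that gave one. The 6 tested genes were all called lower, with means from −1.45 to −0.56. Without replicate 1, lower calls over all genes tested fell from 1051 to 594. The count among these 6 genes was then 3, as RPC37, RPC31 and RPC25 missed the threshold. RPC31 missed it without replicate 2 as well.

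RPC40 (YPR110C) and RPC19 (YNL113W) encode the pair common to polymerases I and III, which resembles the alpha dimer of bacterial RNA polymerase and starts the assembly of the enzyme. RPC40 had −1.36, −1.40 and −1.22, with a mean of −1.32 ± 0.09 (SD, n = 3; limma adjusted p = 0.000203). RPC19 had −1.05, −2.01 and −0.84, a mean of −1.30 ± 0.63 (SD, n = 3; limma adjusted p = 0.00272). The means of the pair were alike, at 0.400 and 0.407 times the untreated level, while RPC19 varied far more between arrays.

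All 5 genes of subunits found in every polymerase were called lower, with a median of −0.73. RPB5 (YBR154C), whose product lies where DNA enters the enzyme, had −1.14, −1.21 and −0.87 and a mean of −1.07 ± 0.18 (SD, n = 3; limma adjusted p = 0.000661). RPO26 (YPR187W) averaged −0.90 ± 0.14, RPB10 (YOR210W) −0.73 ± 0.23 and RPB8 (YOR224C) −0.53 ± 0.04 (SD, n = 3 each). RPC10 (YHR143W-A), a zinc-binding subunit, was the least changed, with −0.76, −0.71 and −0.02 and a mean of −0.50 ± 0.41 (SD, n = 3; limma adjusted p = 0.0444). Before centring, its replicate 3 value was −0.20 at high power and 0.11 at low power. Without replicate 1, 3 of the 5 calls were made, where 594 of all 4336 genes tested were called lower in place of 1051. RPB8 and RPC10 missed the threshold there, and RPC10 missed it without replicate 2 as well. Their means, from −1.07 to −0.50, lay above those of the 4 tested polymerase I subunits and overlapped those of polymerase II.

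The genes of polymerase II alone moved in both directions. RPB3 (YIL021W), the gene of an alpha-like subunit, was the lowest, with −0.56, −1.18 and −0.62 and a mean of −0.79 ± 0.34 (SD, n = 3; limma adjusted p = 0.00515). RPB9 (YGL070C), which encodes a small zinc-binding subunit for start site choice and fidelity, was called lower at −0.35, −0.48 and −0.52, a mean of −0.45 ± 0.09 (SD, n = 3; limma adjusted p = 0.0181). RPB7 (YDR404C), the gene of a stalk subunit, was the highest and was called higher at 0.38, 0.26 and 0.39, a mean of 0.34 ± 0.07 (SD, n = 3; limma adjusted p = 0.048), close to the threshold. The RPB7 call was lost in 7 of 13 alternatives, among them no centring of the arrays and leaving out replicate 1 or 3. The limma adjusted p ran from 0.0216 to 0.202 over the 13 alternatives. The 7 include the stricter threshold of 0.01, which an adjusted p of 0.048 cannot meet.

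RPB2 (YOR151C), the gene of the second largest subunit of polymerase II, had −0.15, −0.53 and −0.28 and a mean of −0.32 ± 0.19 (SD, n = 3), which limma did not call (adjusted p = 0.0795). RPB4 (YJL140W), the partner of RPB7 in the stalk, had 0.33, 0.03 and 0.51 (limma adjusted p = 0.12). RPB11 (YOL005C), the partner of RPB3, had 0.44, 0.09 and 0.29 (limma adjusted p = 0.119). With array weights in the fit, RPB4 and RPB11 were called higher, at 0.36 and 0.33, as they were without replicate 2, at 0.42 and 0.36. All 6 polymerase II genes kept their sign on all 3 arrays after centring, 3 of them below 0 and 3 above it. Before centring, RPB4 stood at −0.02 on replicate 2, and the high-power value of RPB11 there was −0.05. The calls lower among the polymerase II genes numbered 1 in place of 2 without replicate 1 or without replicate 3, where RPB9 missed the threshold. Over all 4336 genes tested, lower calls then numbered 594 and 738 in place of 1051.

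**Figure D2:**
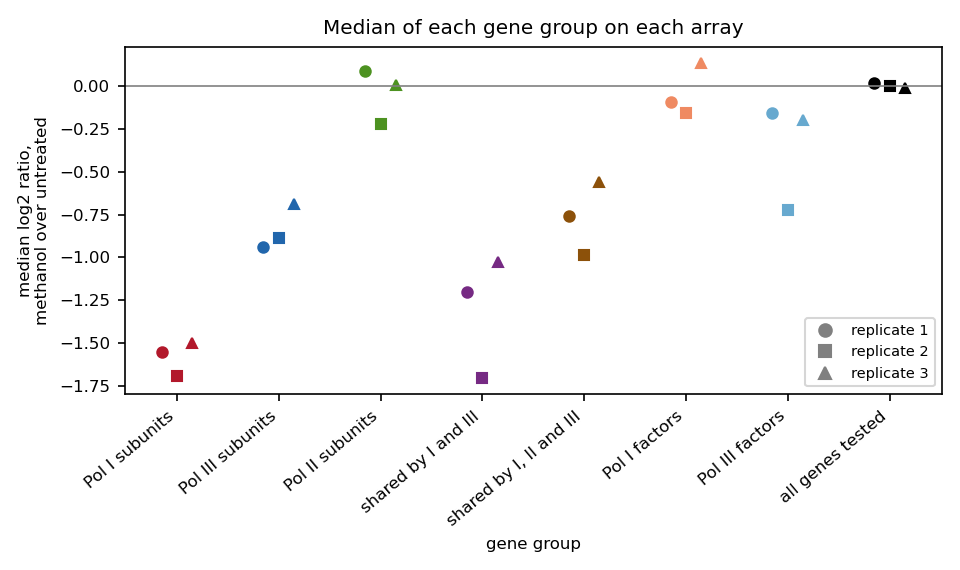
The vertical axis is the median log2 ratio of methanol over untreated of each gene group, over members valued on all 3 arrays, with a point per array. The polymerase I subunits lie between −1.69 and −1.50 on the 3 arrays, the polymerase III subunits between −0.94 and −0.69, and the polymerase II subunits between −0.22 and 0.09.

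The order of the polymerase I, polymerase III and polymerase II subunit groups was the same on each array. The median of polymerase I subunits less that of polymerase II subunits was −1.64, −1.47 and −1.50, a mean of −1.54 ± 0.09 (SD, n = 3). For polymerase III less polymerase II it was −1.03, −0.66 and −0.69, a mean of −0.79 ± 0.20 (SD, n = 3), and for polymerase I less polymerase III it was −0.61, −0.80 and −0.81, a mean of −0.74 ± 0.11 (SD, n = 3). Each difference thus had the same sign on all arrays and was several times its spread over the arrays. That spread leaves out the spread between genes. The SD between gene means was 0.30, 0.30 and 0.48 for the tested subunits of polymerases I, III and II. These differences are descriptions and were not tested, since an exact sign-flip test over 3 arrays cannot give a two-sided p below 0.25. The 4 tested polymerase I genes all had means below the lowest polymerase II gene, RPB3 at −0.79, as did 4 of the 6 tested polymerase III genes. Against the lowest polymerase III gene, RPC53 at −1.45, 2 of the 4 tested polymerase I genes were lower.

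Because the enzymes share a plan, the genes could also be set side by side position by position. At the second largest subunit, RPA135 was lower than RPB2 by 0.98, 0.95 and 1.08 on the log2 scale (mean difference −1.0 ± 0.07, SD, n = 3). RET1 lay 1.14 below RPB2 on replicate 1 and 0.24 above it on replicate 3. In the alpha-like pair, RPC40 less RPB3 was −0.80, −0.21 and −0.59, and RPC19 less RPB11 was −1.48, −2.10 and −1.12. The contrast in that pair was therefore wider for the smaller partner, since RPB3 itself fell.

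In the stalk, RPA43 less RPB7 was −1.91, −1.97 and −1.46 (mean −1.78 ± 0.28, SD, n = 3), and RPC25 less RPB7 was −1.56, −0.64 and −1.26 (mean −1.15 ± 0.47, SD, n = 3). RPC17 less RPB4 was −1.25 and −1.40 on the 2 arrays that valued both. RPA14 did not follow, with 0.52 and −0.22 against RPB4. For the zinc ribbon subunits, RPA12 less RPB9 was −1.05 and −0.92 on replicates 1 and 3, and RPC11 less RPB9 was −0.24, −0.41 and −0.32. At these enzyme positions, except for RPA14 and RET1, the gene of polymerase I or III was the lower on each array with both values. These differences are descriptions too and were not tested. Counterparts did not always have values in the same scans of an array. RPB9, for example, had high-power values alone, while RPC11 had both scans on replicates 1 and 3.

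**Figure D3:**
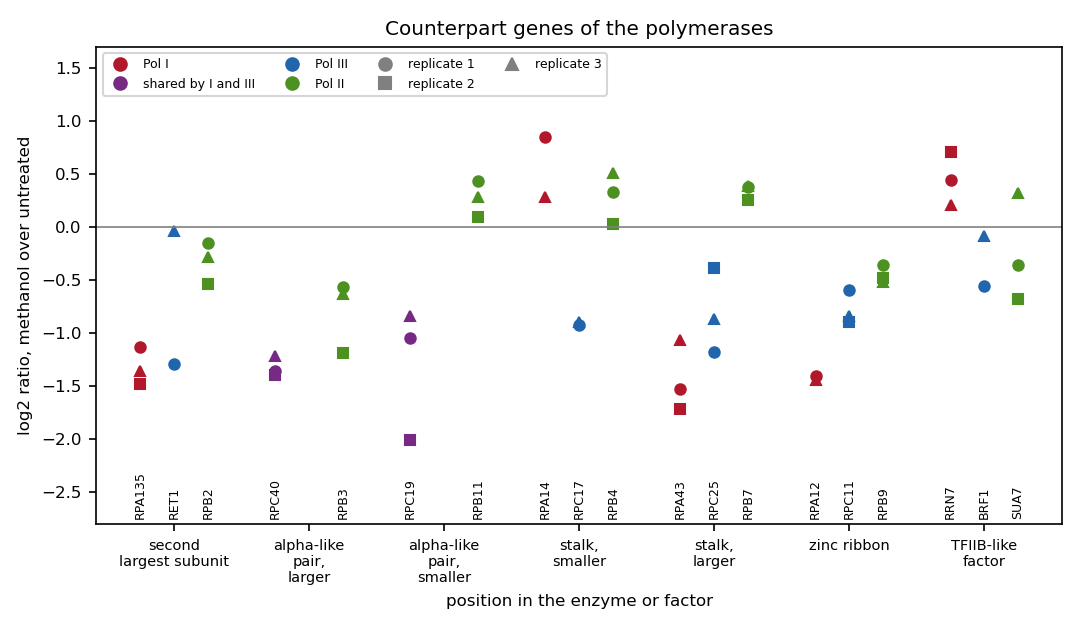
For each position in the enzyme, or for the TFIIB-like factor, the log2 ratios of methanol over untreated on each array are shown for the genes of polymerase I (red), polymerase III (blue) and polymerase II (green), with the genes common to I and III in purple. The stalk genes RPA43 and RPC25 lie below 0 and RPB7 above it on each array.

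The dedicated factors of polymerase I did not share a direction. RRN3 (YKL125W), the factor that makes polymerase I competent for initiation, had −0.89 and −1.17 on replicates 1 and 3 and was not tested. The core factor binds the rDNA promoter next to the start and consists of the products of RRN6 (YBL014C), RRN7 (YJL025W) and RRN11 (YML043C). RRN11 had −0.29, −1.14 and −1.68, a mean of −1.04 ± 0.70 (SD, n = 3; limma adjusted p = 0.0097), with a call that was lost without replicate 3, at a mean of −0.72 (limma adjusted p from 0.00737 to 0.056 over the alternatives). RRN7, the TFIIB-like member, was called higher at 0.44, 0.71 and 0.21 (mean 0.45 ± 0.25, SD, n = 3; limma adjusted p = 0.0302). The call of RRN7 was lost without replicate 1 or replicate 2. RRN6 had 0.11, −0.24 and 0.30. The genes RRN11, RRN7 and RRN6 of this complex thus averaged −1.04, 0.45 and 0.06.

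The upstream activating factor, a stable complex on the far element of the rDNA promoter, includes the products of RRN5 (YLR141W), RRN9 (YMR270C), RRN10 (YBL025W) and UAF30 (YOR295W). RRN9 had −0.97 and −1.05 on replicates 1 and 3, and RRN10 had 0.77 and 0.41 on replicates 2 and 3. RRN5 was at 0.30, 0.68 and 0.21 and just missed the threshold (mean 0.39 ± 0.25, SD, n = 3; limma adjusted p = 0.0505). It was called higher with the high-power scans alone (limma adjusted p = 0.0391) and with a trended, robust moderation (limma adjusted p = 0.037). UAF30 averaged −0.16 ± 0.27 (SD, n = 3; limma adjusted p = 0.397). HMO1 (YDR174W), which encodes a protein that binds rDNA and promoters of ribosomal protein genes, was called lower at −0.34, −0.43 and −0.53 (mean −0.43 ± 0.10, SD, n = 3; limma adjusted p = 0.0214). Of the 9 polymerase I factors, 4 were below 0 and 3 above it on each array with a value. The 2 lower calls, RRN11 and HMO1, were both lost without replicate 3, and that of HMO1 without replicate 1 as well.

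Among the factors of polymerase III, the complex TFIIIB recruits the enzyme and is made of the products of BRF1 (YGR246C) and BDP1 (YNL039W) with the TATA-binding protein. BDP1 was called lower at −0.33, −1.06 and −0.52 (mean −0.64 ± 0.38, SD, n = 3; limma adjusted p = 0.0151). The call of BDP1 was lost without replicate 3. BRF1 had −0.55 and −0.08 on replicates 1 and 3. SPT15 (YER148W), the gene of the TATA-binding protein, which serves all 3 polymerases, was called lower at −0.50, −1.06 and −0.71 (mean −0.76 ± 0.28, SD, n = 3; limma adjusted p = 0.00446). It is outside the 49 genes and was named after its value was seen. All values of these 3 genes were below 0. SUA7 (YPR086W), which encodes TFIIB, the polymerase II counterpart of RRN7 and BRF1 and outside the 49 genes, had −0.36, −0.67 and 0.32 and was not called (limma adjusted p = 0.342). RRN7 less SUA7 was 0.80, 1.38 and −0.11, and BRF1 less SUA7 was −0.19 and −0.40 on replicates 1 and 3.

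TFIIIC binds the internal promoter boxes of transfer RNA genes and has 6 subunits, of whose genes 4 were tested and 1 was called. That gene, TFC8 (YPL007C), was lower at −0.93, −0.95 and −0.56 (mean −0.81 ± 0.22, SD, n = 3; limma adjusted p = 0.00244). TFC6 (YDR362C), the highest tested gene of the group, had 0.02, −0.11 and 0.23 (limma adjusted p = 0.784). TFC3 (YAL001C) and TFC7 (YOR110W) averaged −0.19 ± 0.42 and 0.02 ± 0.20 (SD, n = 3 each) and were not called. The untested TFC1 (YBR123C) had 0.45 and 0.70 on replicates 1 and 3 and was called higher when genes valued on 2 arrays entered the fit (limma adjusted p = 0.0357), and TFC4 (YGR047C) had −0.89 and 0.45, with opposite signs. MAF1 (YDR005C), whose product represses polymerase III under stress and nutrient limitation, was called lower too, at −0.57, −0.78 and −0.41 (mean −0.59 ± 0.18, SD, n = 3; limma adjusted p = 0.00832). Its call was lost without replicate 1, where its value was −0.59 (limma adjusted p from 0.00468 to 0.0634 over the alternatives).

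The median of polymerase I subunits less that of polymerase I factors was −1.46, −1.53 and −1.63 on the 3 arrays, a mean of −1.54 ± 0.09 (SD, n = 3). For polymerase III it was −0.78, −0.16 and −0.49, a mean of −0.47 ± 0.31 (SD, n = 3), and 3 of the 6 tested subunit genes lay below the lowest factor gene. Neither difference was tested. Over all members on the array, 22 of 23 subunit genes of polymerases I and III and of the shared set were below 0 on each array with a value, against 8 of 18 factor genes and 36.4% of all 5360 genes with a value. That count includes the untested members.

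**Figure D4:**
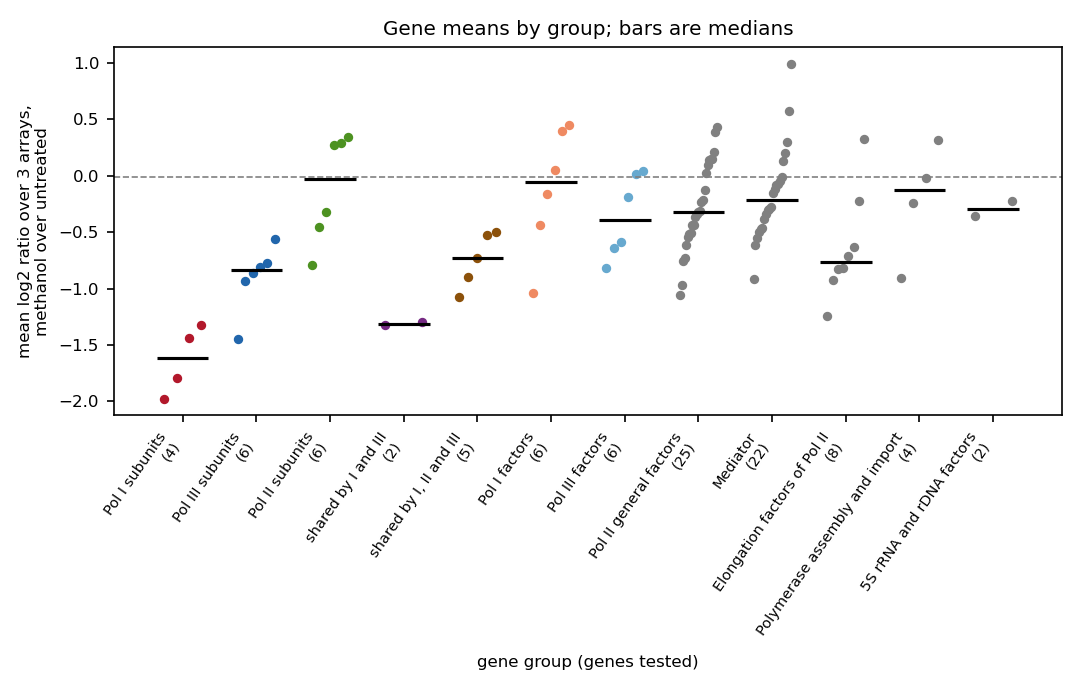
Each point is the mean log2 ratio of methanol over untreated of a tested gene over the 3 arrays, by gene group, with the number of genes tested in brackets. Bars are medians and the dashed line is the median of all 4336 genes tested. Coloured groups are the polymerase genes and grey groups are other genes of the transcription machinery. The polymerase I subunits have the lowest median, with gene means between −1.97 and −1.32.

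Other genes of the transcription machinery were read as a setting for these values. Of 25 tested genes of polymerase II general factors, which open promoters for messenger RNA, limma called 9 lower and 0 higher, with a median of −0.32, where 24.2% of all genes tested were called lower and 26.0% higher; at an unadjusted p under 0.05 there were 2 higher. The largest changes there were those of RAD3, a helicase gene of TFIIH that also serves DNA repair, at −1.06 ± 0.33, and of TAF4, a subunit gene of TFIID, at −0.97 ± 0.32 (SD, n = 3 each). Mediator, the bridge between activators and polymerase II, had 3 of 22 genes called lower and 2 higher, both below the shares over all genes, with a median of −0.22. MED4 stood at −0.92 ± 0.20 and SOH1 at 0.99 ± 0.26 (SD, n = 3 each), both called.

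Genes of polymerase II elongation factors were mostly lower, with a median of −0.76. Of 8 tested, limma called 6 lower, where 24.2% of all genes tested were, and 0 higher (1 at an unadjusted p under 0.05). POB3, of the histone chaperone FACT, stood at −1.24 ± 0.51, and CTR9, of the Paf1 complex, at −0.93 ± 0.47 (SD, n = 3 each). That median lies close to those of the polymerase III subunits and of the shared subunits. Of 4 tested genes for assembly and nuclear import of polymerases, GPN2 was the single call, at −0.90 ± 0.08 (SD, n = 3), beside a group median of −0.13. A count of 1 in 4 is near the share called lower over all genes. In the small list of 5S ribosomal RNA and rDNA factors, neither of the 2 tested genes, NET1 and FOB1, was called by limma, and 0 had an unadjusted p under 0.05. PZF1, which encodes the 5S factor TFIIIA and was named after its values were seen, had 0.39 and 0.48 on replicates 1 and 3.

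The genes flanking the members in the reference gene order were also read. Of 31 tested neighbours of polymerase I, polymerase III and shared subunit genes, 15 were called lower and 7 higher, with a median of −0.30, where the 17 tested members themselves were all called lower. Beside the polymerase II subunit genes, 2 of 10 tested neighbours were called lower and 3 higher, with a median of 0.02. Over all genes tested, 24.2% were called lower and 26.0% higher, so the share called lower was above that of the array among the neighbours of polymerase I, polymerase III and shared subunit genes and near it among those of polymerase II subunit genes.

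Signal strength bears on these values. Array coverage was 5166, 4399 and 5339 genes on replicates 1, 2 and 3, and 45, 36 and 47 members. The median number of scans with a value, of 6, was 3 for the tested polymerase I subunits, 4 for those of polymerase III and 5.5 for those of polymerase II, against 5 over all genes tested, so the polymerase I and III groups rested on fewer scans, and the part of signal strength in the group differences was not tested. Where a member had both scans of an array (41 pairs), they differed by a median of 0.19 on the log2 scale, against 0.12 over 8102 pairs of all named spots, and by at most 0.81, for RPC34 on replicate 3 (−0.96 at high power and −0.15 at low power, before centring). With the high-power scans alone the medians were −1.59, −0.95 and −0.03 for the subunits of polymerases I, III and II. No subunit particular to polymerase I, to polymerase III or to that pair could be tested on the low-power scans alone.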

How the data were processed

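Poly(A) RNA of methanol-treated and untreated S288C cultures was compared on 3 2-colour spotted arrays, each scanned at high and low laser power. The deposited values are log ratios, read as log2, on which the authors ran a LOWESS normalization over spots with flag 0, per the labels. Spot intensities were not used here, and the software and background correction are not given in the sources used here. The number of arrays limits the precision. Spots were named through the platform annotation, and all 5446 named spots matched the R64 reference gene table, which also gave systematic names and neighbours. Coordinates are not given, as the values name no genome build.

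Both scans of an array were averaged and counted as 1 replicate, spots were averaged per gene, and arrays were centred on the median gene. In R 4.3.3, limma 3.58.1 tested the genes that every array valued (intercept against 0, empirical Bayes, Benjamini-Hochberg over all 4336 genes, adjusted p under 0.05), which gave every adjusted p. The fit was tested on simulated data. Medians of gene groups are descriptions. Alternatives were single scans, other centring, other filters, array weights, another moderation, a stricter threshold, the median of spots and leaving out each array. The median of spots gave the same value and call for all 35 tested members. Members and gene lists were chosen with earlier results of these data known. Values per array are given for the counterpart sets and for the highest and lowest gene of each group, and the 2 called genes with the largest change are named in each other list. Promoter and protein sequences were not used here, so a planned motif count was not made.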

Additional observations from a re-analysis of the deposited data

How the results depend on the processing

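Of the 26 called members, 14 kept direction and call in each alternative that gave them a value, namely the 4 polymerase I subunits, RPC40, RPC19, RPC53, RPC34, RPC11, RPB5, RPO26, RPB10, RPB3 and TFC8. The cause of the changes below was not tested, other than that fewer genes or arrays entered some fits. With low-power scans alone, 485 of 1710 genes tested were called lower and 431 higher. Only 6 members could be tested, of which 3 were called lower and 0 higher, with a median of −0.38. The 3 tested polymerase II subunits had a median of 0.29 with 0 called lower. Of polymerase I factors HMO1 alone was tested, at −0.48 and called lower. Of subunits shared by all 3 polymerases, 2 of 2 tested were called lower. With genes valued in all 6 scans, 517 of 1596 genes tested were called lower and 428 higher. Again 6 members could be tested, of which 4 were called lower and 1 higher (median −0.38). The 3 tested polymerase II subunits had a median of 0.27 with 1 called lower. HMO1, the only polymerase I factor tested, was called lower at −0.43. Of subunits shared by all 3 polymerases, 2 of 2 tested were called lower. Under either setting no subunit particular to polymerase I, to polymerase III or to that pair could be tested. At adjusted p under 0.01, 639 genes and 19 members were called lower, and 784 genes and 0 members higher. At that threshold 1 polymerase II subunit and 1 polymerase I factor were called lower.

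With values on at least 2 arrays, 1121 of 5208 genes tested were called lower and 1213 higher. The polymerase I subunit median was −1.43 and 4 of 9 polymerase I factors were called lower, RRN3 and RRN9 among them. RPA12, RPC17 and RPC82 were called lower too, and RRN10 and TFC1 higher. The other newly tested members, RPA14, RET1, BRF1 and TFC4, were not called. RPC10 and RPB7 lost their calls (limma adjusted p = 0.0586 and 0.0558). Array weights called 4 members higher, where 1225 of 4336 genes tested were, and put the polymerase II median at 0.037. Without centring, or centred on the mean, 1 member was called higher, where 1070 and 1076 of all genes tested were. TFC7 stood at −0.024 and −0.018 there, and at −0.052 with high-power scans alone. Leaving out 1 array gave 594 to 1074 genes lower and 692 to 1156 higher, 16 to 22 members lower (16 without replicate 1, 20 without replicate 3) and 0 to 3 higher, and lower calls for 3 to 6 polymerase III, 1 to 2 polymerase II and 3 to 5 shared subunits and 0 to 2 polymerase I factors. Medians then ran from −1.74 to −1.45 for polymerase I subunits, −0.11 to 0.073 for polymerase II subunits and −0.17 to 0.013 for polymerase I factors, and the uncalled RRN6 from −0.066 to 0.20, TFC3 from −0.33 to 0.052, TFC6 from −0.045 to 0.12 and TFC7 from −0.083 to 0.11. The planned promoter window was not run. Each array compares treated with untreated RNA directly, so the fit of the ratios against 0 already uses the pairing within arrays.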
